A study of Homo sapiens with 8 samples.

Results

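The peaks described here lay at the promoters of genes for translation initiation factors and for aminoacyl-tRNA synthetases, in a list of Cut&Run peaks of an antibody against the fusion protein PML::RARA. They were chosen by the gene symbol that the list gives a peak. A symbol that starts with EIF and a digit put a peak among the EIF peaks, and a symbol of 1 letter and ARS with an optional final 1 or 2, or one that starts with EPRS or FARS, put it among the tRNA synthetase peaks. This gave 38 EIF peaks of 35 genes and 26 tRNA synthetase peaks of 26 genes, 64 of the 7169 peaks that carry a gene symbol and of 15412 peaks in all. The other 7105 peaks with a symbol, of 6485 genes, are called the other promoter peaks below. The EIF symbols include the noncoding RNAs EIF1B-AS1 and EIF3J-DT and the gene EIF1AD, whose product is not an initiation factor. Genes of eIF2 kinases and of eIF4E-binding proteins, which are not subunits of initiation factors, are also among them. The choice used no measured value.

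The cells were U937-PR9, a monocytic line that carries PML::RARA as a transgene behind a zinc-inducible promoter. Induced cells received 100 μM ZnSO4 and uninduced cells received water, each for 5 h, and nuclei of both were used for Cut&Run, in which an antibody guides a nuclease to the DNA near its target. The study describes 8 libraries, 2 replicates of each condition with each of 2 antibodies, anti-PML::RARA and anti-RARA. The list analysed comes from the anti-PML::RARA libraries of induced cells and keeps peaks seen in both replicates, with 1 value per peak and none per replicate. No spread between replicates can therefore be given, nothing below was tested, and the peaks of uninduced cells and of the anti-RARA antibody were not analysed here. The sequencing depth is unknown, and expression was not measured in these libraries. All of this comes from 1 cell line with a transgene, and every position below is on hg19, which is GRCh37.

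Translation of most messenger RNAs starts when the eIF4F complex binds the cap, and a 43S complex of the small ribosomal subunit, eIF1, eIF1A, eIF3 and the initiator tRNA carried by eIF2 scans to the start codon. eIF2B recharges eIF2 with GTP, and stress kinases that phosphorylate eIF2 block this step, which lowers general translation and raises translation of the transcription factor ATF4. Aminoacyl-tRNA synthetases load each tRNA with its amino acid. Separate enzymes serve the cytosol and the mitochondria for most amino acids, several of the cytosolic ones sit together in the multisynthetase complex, and many of the cytosolic genes are known targets of ATF4, which binds C/EBP-ATF elements. PML::RARA, the fusion protein of acute promyelocytic leukaemia, keeps the DNA-binding domain of the retinoic acid receptor alpha, which binds repeats of a half-site of the type AGGTCA.

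Some of these promoters held a C/EBP-ATF element, TGATGNAA on either strand, within 200 bp of the apex of the peak. The stretches below show the element in capitals with 11 bases on each side, on the strand of the gene. They are printed because a larger share of synthetase than of other promoter windows held the element, as described further on. The first 4 belong to synthetase peaks and the fifth to an EIF peak. The last 3 lie under start-site peaks of synthetase genes that the list gives another symbol or none.
AARS1 (alanyl-tRNA synthetase; chr16:70323578-70323607, minus strand): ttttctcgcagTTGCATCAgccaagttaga
CARS1 (cysteinyl; chr11:3078637-3078666, minus strand): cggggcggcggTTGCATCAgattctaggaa
NARS1 (asparaginyl; chr18:55289036-55289065, minus strand): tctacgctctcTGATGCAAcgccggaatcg
TARS1 (threonyl; chr5:33441062-33441091, plus strand): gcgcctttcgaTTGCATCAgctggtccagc
EIF2S2 (beta subunit of eIF2; chr20:32700016-32700045, minus strand): tttcctttcgcTGATGCAAgagcctagtgc
GARS1 (glycyl; chr7:30634450-30634479, plus strand): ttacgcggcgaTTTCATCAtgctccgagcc
IARS1 (isoleucyl; chr9:95055974-95056003, minus strand): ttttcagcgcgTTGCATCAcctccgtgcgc
MARS1 (methionyl; chr12:57881836-57881865, plus strand): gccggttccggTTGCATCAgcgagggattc

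The 150 bases before the canonical start site are shown for EIF1, the highest EIF peak, and for CARS2, the mitochondrial cysteinyl-tRNA synthetase, which shared the largest height among the synthetases with YARS1. Capitals mark CCAAT (NF-Y), GGGCGG (SP/KLF) and CCGGAAG (ETS) on either strand. The same stretch of YARS1 overlaps annotated untranslated sequence over all 150 bases and is not shown. That of CARS2 overlaps such sequence by up to 17 bases. It also lies inside the annotated gene, whose 5′ edge is at 111365950.
EIF1 (chr17:39844987-39845136, plus strand): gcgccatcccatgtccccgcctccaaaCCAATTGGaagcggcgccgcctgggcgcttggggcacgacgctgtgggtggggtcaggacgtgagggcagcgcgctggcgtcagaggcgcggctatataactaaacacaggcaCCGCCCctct
CARS2 (chr13:111358464-111358613, minus strand): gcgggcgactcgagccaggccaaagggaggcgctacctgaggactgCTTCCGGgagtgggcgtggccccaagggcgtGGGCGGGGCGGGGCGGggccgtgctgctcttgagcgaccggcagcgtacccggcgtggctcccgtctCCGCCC

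As a group, neither the EIF peaks nor the tRNA synthetase peaks stood above the other promoter peaks in height. Peak height is taken to be the largest signal within a peak. It is a whole number on a linear scale that ran from 13 to 87 in the whole list, with a median of 25. The EIF peaks had a median height of 25, with quartiles of 21 and 31.75 and a range of 17 to 62. The synthetase peaks had a median of 23, with quartiles of 19 and 32.75 and a range of 16 to 47. The other promoter peaks had a median of 26 and quartiles of 20 and 35. Both groups thus lay within the spread of the other promoters, and the largest heights of that set, up to 86, were not reached. The median of the other promoter peaks was exceeded by 15 of 38 EIF peaks (39.5%, Wilson 95% interval 25.6% to 55.3%) and by 11 of 26 synthetase peaks (42.3%, 25.5% to 61.1%). Among the other promoter peaks themselves this share was 48.6%, below 50% because of ties. Both intervals include it, and they cover the counting of peaks only.

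**Figure D1:**
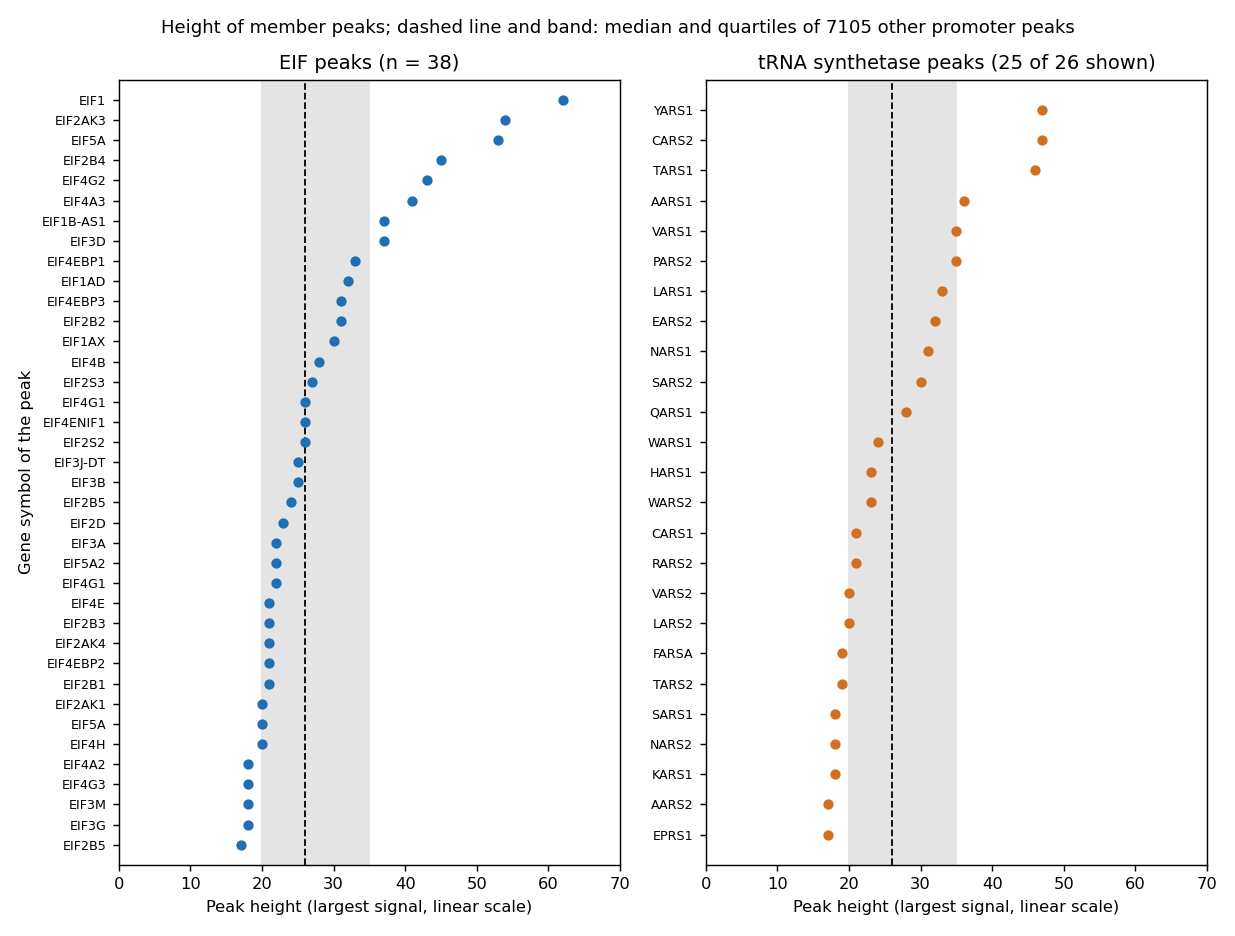
Height of each of the 38 EIF peaks (left) and 25 of the 26 tRNA synthetase peaks (right), 1 point per peak, on a linear axis, with the median of 26 and the quartiles of 20 and 35 of the 7105 other promoter peaks as dashed line and band. EIF1 at 62, EIF2AK3 at 54 and EIF5A at 53 lead the EIF peaks, and YARS1 and CARS2 at 47 and TARS1 at 46 lead the synthetases.

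In width, the synthetase peaks had a lower median than the other promoter peaks. Their median width was 864.5 bp, with a range of 337 to 2044 bp, beside 1109 bp for the other promoter peaks. Only 6 of 26 synthetase peaks were wider than that median (23.1%, Wilson 95% interval 11% to 42.1%). The interval lay below the 50% of the other promoter peaks, but it covers the counting of peaks only and is no test. With the 15 cytosolic enzymes alone the share was 33.3% (15.2% to 58.3%), and that interval included 50%. Among peaks of like height, in 10 classes, the share was 19.2% for the synthetases and 49.9% for the other peaks. The EIF peaks had a median width of 1059 bp and a range of 341 to 2137 bp, and 15 of 38 were wider (39.5%, 25.6% to 55.3%). With the 24 peaks of initiation factor subunits alone, the median was 932.5 bp and 33.3% were wider (18.0% to 53.3%). Total signal, which sums the signal over a peak, had a median of 9162 for the EIF peaks, 7946 for the synthetases and 10096 for the other promoter peaks. Higher peaks were also wider, with a Spearman correlation across peaks of 0.54 in the 38 EIF peaks, 0.57 in the 26 synthetase peaks and 0.45 in the other 7105, which is a description of peaks of the same libraries.

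**Figure D2:**
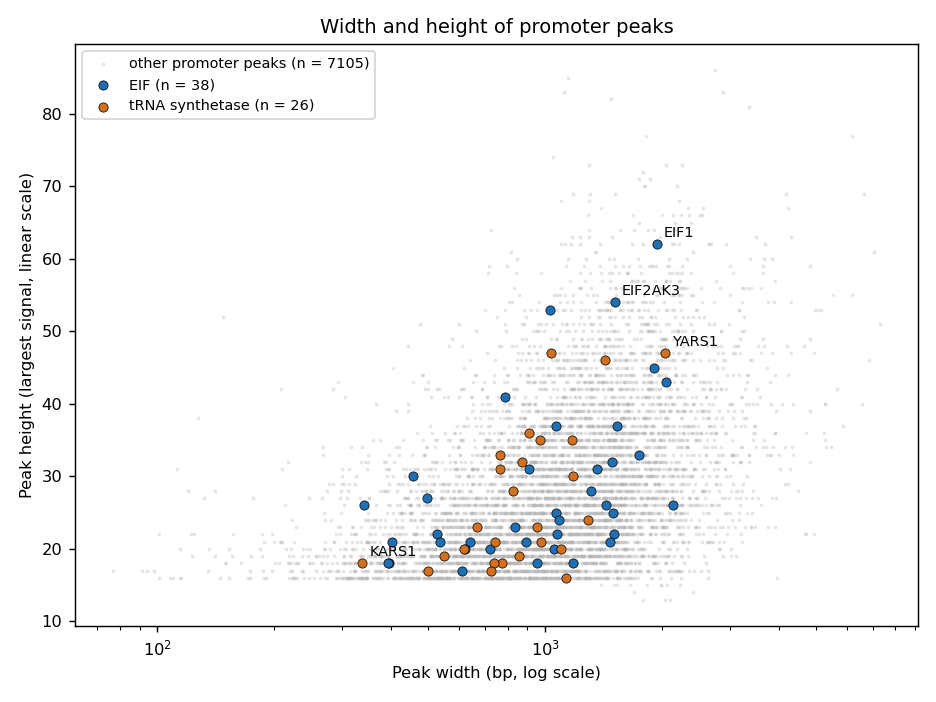
Width (log axis, bp) against height (linear axis) of the 38 EIF peaks, the 26 tRNA synthetase peaks and the 7105 other promoter peaks, 1 point per peak. The synthetase peaks lie within the spread of the other peaks, with a lower median width of 864.5 bp beside 1109 bp. EIF1, EIF2AK3 and YARS1 lie in the upper right.

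The authors gave a symbol where the apex overlapped a promoter, so these peaks lie near annotated start sites by construction. Their positions are a description and no check of the label. Against the canonical transcript of its gene, the apex lay upstream of the start in 32 of 38 EIF peaks, in an intron in 3, in an untranslated part of an exon in 2 and in a coding part in 1. The upstream count includes EIF1B-AS1, whose apex lay 8246 bp from the canonical start and 13 bp from another annotated start. In the synthetases it lay upstream in 22 of 26, in an untranslated part in 2 and in a coding part in 2. Measured to the nearest annotated start site of the gene, the median distance was 88.5 bp in the EIF peaks and 45 bp in the synthetases, beside 102 bp in the 6918 other promoter peaks whose symbol was in the annotation. The synthetase apices were the most tightly placed, with 24 of 26 within 200 bp (92.3%), beside 29 of 38 for EIF (76.3%) and 71.7% of the other promoter peaks. The farthest were the second EIF5A peak at 710 bp and the EIF4ENIF1 peak at 692 bp.

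**Figure D3:**
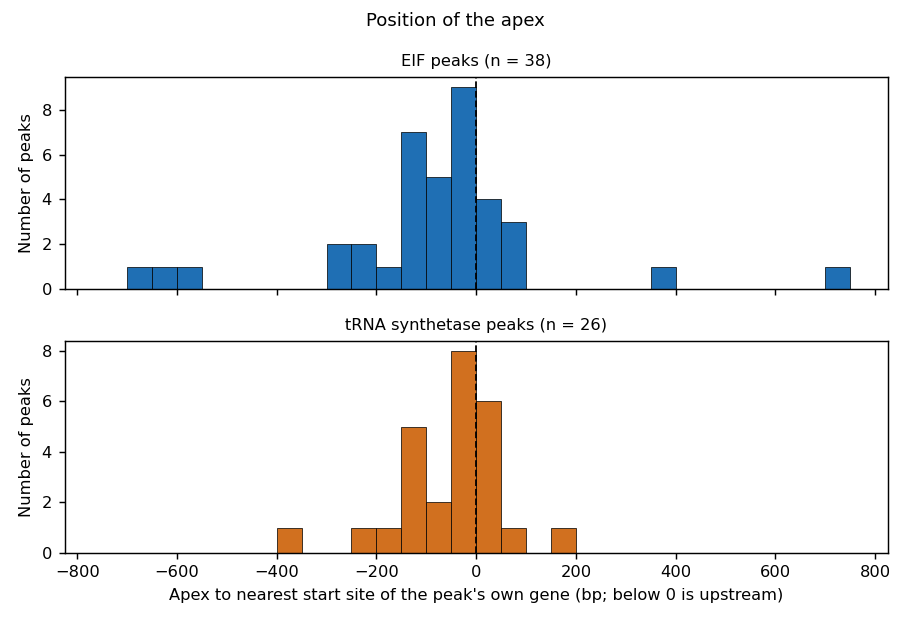
Number of peaks by distance from the apex to the nearest annotated start site of the peak's own gene, in bp, with values below 0 upstream of the start, for the 38 EIF peaks (top) and the 26 tRNA synthetase peaks (bottom). All but 2 of the 26 synthetase apices lie within 200 bp of a start site.

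Among the factors that choose the start codon, EIF1 (ENSG00000173812) had the highest peak of both groups. Its peak from 39844110 to 39846049 on chromosome 17 was 1940 bp wide with a height of 62, higher than 99% of the other promoter peaks, and its total signal of 42923 was the largest of the 64 peaks. The apex lay on the start site, in the untranslated part of exon 1. EIF1AX, which codes for eIF1A, a factor that aids scanning, reached 30 in only 455 bp. EIF1B, a close paralogue of EIF1, had no peak of its own symbol, and the peak 135 bp from its start site, with a height of 37, carried the symbol of its antisense RNA EIF1B-AS1.

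The peaks with the symbols of eIF2, the carrier of the initiator tRNA, were narrow. EIF2S2, the beta subunit, had a peak of 341 bp from 32700020 to 32700360 on chromosome 20 with a height of 26, the narrowest EIF peak. EIF2S3, the gamma subunit, had a peak of 496 bp from 24072338 to 24072833 on chromosome X with a height of 27, with its apex 638 bp upstream. EIF2S1, the alpha subunit that the stress kinases phosphorylate, had an apex 400 bp from its start site in a wider peak of 914 bp. That peak had a height of 32 and carried the symbol of ATP6V1D, the divergent neighbour of EIF2S1.

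All 5 genes of eIF2B, the exchange factor of eIF2, had peaks of their own symbol, 6 in all, with a median height of 22.5. EIF2B4, the delta subunit, stood apart from the other subunits, reaching 45 over 1910 bp, from 27592522 to 27594431 on chromosome 2, higher than 90.7% of the other promoter peaks. EIF2B2, the beta subunit, had a height of 31, and EIF2B3 and EIF2B1 had 21 each. EIF2B5, the catalytic epsilon subunit, had 2 peaks on chromosome 3. One, with the apex in exon 1, reached 24 between 183852641 and 183853723, and one upstream, between 183851887 and 183852495, reached 17 and was the lowest EIF peak.

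The kinases of eIF2 differed widely. EIF2AK3, which codes for PERK and responds to stress of the endoplasmic reticulum, had a peak of height 54 from 88926374 to 88927883 on chromosome 2, higher than 96.7% of the other promoter peaks, with the apex 298 bp upstream. EIF2AK4, which codes for GCN2 and senses uncharged tRNA, had a height of 21, and EIF2AK1, the haem-regulated kinase, had 20. EIF2AK2, which codes for the double-stranded RNA kinase PKR, had no peak within 10 kb.

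Of eIF3, the scaffold of the 43S complex, 5 of 14 genes had a peak of their own symbol, and the heights were 37 for EIF3D, 25 for EIF3B, 22 for EIF3A and 18 for both EIF3M and EIF3G. The last pair were among the narrowest EIF peaks, at 395 and 393 bp. EIF3E, EIF3J, EIF3K and EIF3L had an apex within 1 kb under another symbol, so that 9 of 14 genes were covered. EIF3C and EIF3CL, near-identical copies whose reads an aligner may not place uniquely, had no peak within 10 kb and are uncertain for this reason. EIF3F and EIF3H also had none, and the apex nearest to a start site of EIF3I lay 19937 bp from it, although a peak lay within 10 kb of the gene.

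The eIF4F complex, which binds the cap and unwinds the 5′ end, had low peaks. None of its 5 peaks was higher than the median of the other promoter peaks. EIF4E, the cap-binding subunit, had a height of 21 from 99849294 to 99850760 on chromosome 4. EIF4G1, the scaffold, had the widest EIF peak, 2137 bp from 184032134 to 184034270 on chromosome 3 with a height of 26, and a further peak from 184037668 to 184038194 with a height of 22 in intron 7 of the canonical transcript, 125 bp upstream of another annotated start. EIF4G3, a paralogue, and the helicase EIF4A2 each had a height of 18. The main helicase EIF4A1 differed from these, with an apex 286 bp from its start site in a peak of 2198 bp from 7475465 to 7477662 on chromosome 17 with a height of 50. That peak carried the symbol of the small nucleolar RNA SNORA48 and so is not among the 38.

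Other eIF4 genes had higher peaks, with a median of 34.5 over 4 genes. EIF4G2, an eIF4G relative that lacks the site for eIF4E, reached 43 over 2050 bp from 10829131 to 10831180 on chromosome 11. EIF4A3, the helicase of the exon junction complex, had a height of 41 in only 786 bp. EIF4B and EIF4H, which stimulate the eIF4A helicase, had heights of 28 and 20.

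All 4 genes grouped here as eIF4E-binding, the EIF4EBP genes and EIF4ENIF1, had a peak. EIF4EBP1, a repressor of eIF4E under the control of mTOR, reached 33 over 1745 bp, with the apex in intron 1. EIF4EBP3 had a height of 31, EIF4ENIF1, which carries eIF4E into the nucleus, 26, and EIF4EBP2 21. EIF5A, a factor with a hypusine residue that helps the ribosome past difficult sequences, had 2 peaks on chromosome 17. The first, from 7209997 to 7211025, had a height of 53, higher than 96.1% of the other promoter peaks, and the other, in intron 1 from 7212144 to 7212763, had a height of 20. Its paralogue EIF5A2 had a height of 22. EIF2D, which can deliver initiator tRNA apart from eIF2, had 23, and EIF1AD had 32. EIF5, which triggers GTP hydrolysis by eIF2, had an apex 70 bp from its start site in a peak of height 40 without any symbol.

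Among the 26 tRNA synthetase peaks, the cytosolic enzymes outside the multisynthetase complex had the highest median, 27.5 over 10 peaks. YARS1, the tyrosyl enzyme, had a height of 47 and the largest width of the group, 2044 bp from 33282224 to 33284267 on chromosome 1. TARS1 reached 46 over 1427 bp from 33440468 to 33441894 on chromosome 5. AARS1 had a height of 36 from 70322731 to 70323638 on chromosome 16, and VARS1, the valyl enzyme, had 35 from 31762815 to 31763988 on chromosome 6. The remaining 6 were NARS1 at 31, WARS1 at 24, HARS1 at 23, CARS1 at 21, FARSA at 19 and SARS1 at 18. YARS1 and TARS1 were higher than 92.4% and 91.5% of the other promoter peaks, whereas FARSA and SARS1 were higher than 16.0% and 11.3%.

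The multisynthetase complex had lower and narrower peaks, with a median height of 18 and a median width of 764 bp over 5 peaks. LARS1, the leucyl enzyme, had a height of 33, and QARS1, the glutaminyl enzyme, had 28. KARS1, the lysyl enzyme, had the narrowest peak of both groups, 337 bp from 75681445 to 75681781 on chromosome 16 with a height of 18. EPRS1, the joined glutamyl and prolyl enzyme, had a height of 17 from 220219601 to 220220099 on chromosome 1. IARS1 and MARS1 had start-site peaks of heights 19 and 41 under the symbols SNORA84 and ARHGAP9, and RARS1 had no peak within 10 kb.

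The mitochondrial enzymes had a median height of 21 and a median width of 744 bp over 11 peaks, of which 1 was wider than the median of the other promoter peaks. That one belonged to SARS2, which reached 30 over 1178 bp. CARS2 led with a height of 47 from 111357989 to 111359025 on chromosome 13, followed by PARS2 at 35 and EARS2 at 32. WARS2 at 23, RARS2 at 21, VARS2 and LARS2 at 20 and TARS2 at 19 lay below the median of 26 of the other promoter peaks. The lowest were AARS2 at 17 and NARS2 at 18. CARS2 stood well above its cytosolic counterpart CARS1, at 21, and AARS2 below AARS1, at 36, so the order of cytosolic and mitochondrial enzyme was not the same for each amino acid. These are single values per peak, and the differences between classes of 5 to 11 peaks have no replicate error.

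Most family genes had a peak. Of 55 protein-coding EIF genes on chromosomes 1 to 22 and X of the annotation, 33 had a peak of their own symbol (60%, Wilson 95% interval 46.8% to 71.9%), and of 37 synthetase genes 26 had one (70.3%, 54.2% to 82.5%). Over all 20087 protein-coding genes this share was 30.0%. The symbols understate the coverage, since the list gives each peak at most 1 symbol and some start-site peaks carry none. An apex within 1 kb of an annotated start site, whatever its symbol, was found for 44 EIF genes (80%, 67.6% to 88.4%) and for 32 synthetase genes (86.5%, 72.0% to 94.1%), beside 39.3% of all protein-coding genes. The last share counts all genes whatever their expression, and coverage was not compared with that of other expressed genes.

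**Figure D4:**
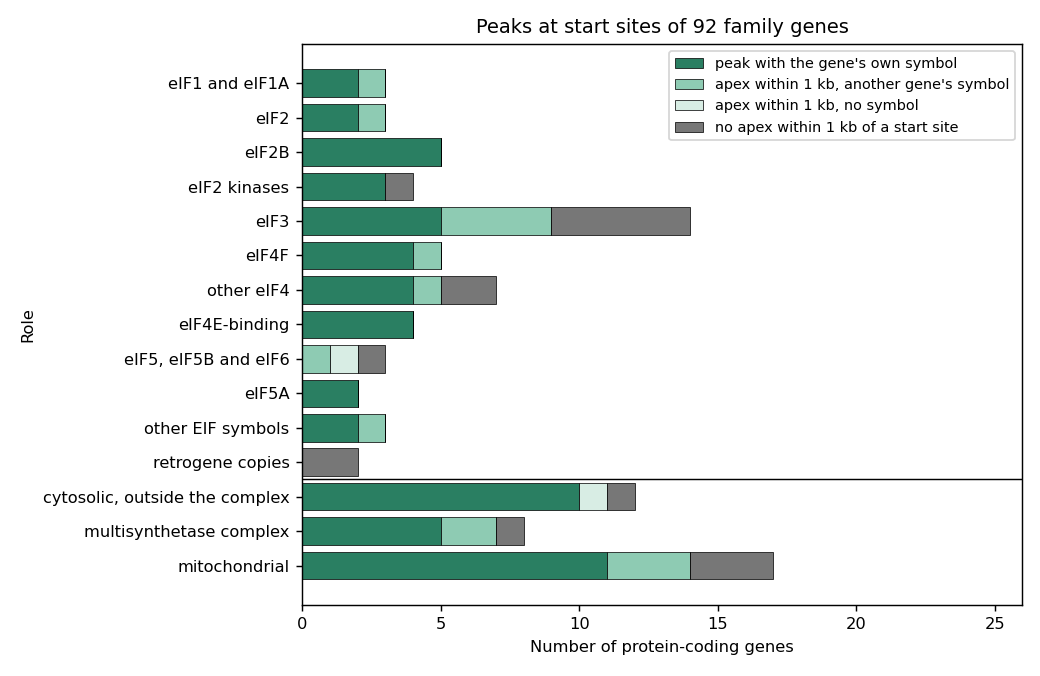
Number of protein-coding genes in each role, out of 92, split by whether a peak carried the gene's own symbol, lay with its apex within 1 kb of a start site under another symbol or none, or was missing there. eIF2B and the eIF4E-binding genes are covered by their own symbol throughout, whereas eIF3 has 5 of 14 genes without an apex within 1 kb.

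A peak under another symbol or none stood at the start site of 17 genes. This was 25% of the 44 covered EIF genes and 18.8% of the 32 covered synthetase genes, beside 25.4% over all 8079 covered protein-coding genes. Besides those named above, the symbols included LYRM4 for FARS2 at 17, SERP1 for EIF2A at 33, TIGD1 for EIF4E2 at 16 and TXNDC9 for EIF5B at 36, whose apex was 840 bp away. MAP4K1 stood for EIF3K at 22, MIR659 for EIF3L at 21, EMC2 for EIF3E at 25 and EIF3J-DT for EIF3J at 25. HARS2 shared the peak of HARS1, the 2 histidyl genes having start sites 85 bp apart on opposite strands, and GARS1 had a peak of height 16 without a symbol. The EIF3E apex was near an alternative start site, 194977 bp from the canonical one.

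Of the 16 genes without an apex within 1 kb, 12 had no peak within 10 kb of either end of the gene or inside it. These were the synthetases FARSB, IARS2, MARS2, YARS2 and RARS1, and EIF2AK2, EIF3C, EIF3CL, EIF3F, EIF3H, EIF2S3B and EIF5AL1. The last pair are retrogene copies of EIF2S3 and EIF5A. FARSA and FARSB, which code for the subunits of the cytosolic phenylalanyl enzyme, thus differed, with a peak of height 19 at the former. The other 4 had a peak within 10 kb of the gene. They were EIF3I, EIF6 with the nearest apex 6796 bp from a start site, EIF4E1B at 2753 bp and EIF4E3 at 3370 bp.

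Divergent promoters, with the canonical start of another protein-coding gene on the opposite strand within 1 kb, were found at 6 of the 26 synthetase genes with a peak (23.1%) and at 3 of the 33 EIF genes with a peak (9.09%). The share was 10.9% of 5960 other genes with a peak and 10.0% of all protein-coding genes. The synthetase pairs were HARS1 with HARS2, KARS1 with TERF2IP at 108 bp, RARS2 with ORC3 at 148 bp, SARS2 with MRPS12 at 181 bp, YARS1 with S100PBP at 295 bp and EARS2 with UBFD1 at 377 bp. The EIF pairs were EIF2B1 with GTF2H3 at 143 bp, EIF2B4 with SNX17 at 278 bp and EIF1AD with BANF1 at 346 bp. A peak at such a pair cannot be told apart between its genes.

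The C/EBP-ATF element was in the windows of 4 of 26 synthetase peaks (15.4%), 1 of 38 EIF peaks (2.63%) and 176 of the 7105 other promoter peaks (2.48%). Each window spans 401 bp. In windows 2 kb upstream, the shares were 11.5%, 2.63% and 6.04%, so the element was not confined to the apex. All 5 member windows held the form TGATGCAA, on one strand or the other, as the stretches above show, and this form was in 0.746% of the other promoter peaks. In CARS1, TARS1, NARS1 and EIF2S2 the element was centred 2, 5, 18 and 19 bp from the canonical start site, and in AARS1 183 bp upstream of it. With the start-site peaks under another symbol or none included, the element was found in 7 of 18 peaks of cytosolic synthetase genes (38.9%) and in 0 of 14 of mitochondrial ones. This split was made after the matches were seen, and the shared HARS1 and HARS2 peak was counted in each class. GARS1, among the 7, and KARS1, without the element, serve both compartments and were counted as cytosolic.

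Of the other motifs, the ETS motif CCGGAAG was in 13 of 26 synthetase windows (50%), 11 of 38 EIF windows (28.9%) and 21.7% of the other promoter windows. The synthetases that held it included CARS2, HARS1, KARS1, TARS1 and YARS1, and windows of both cytosolic (8 of 15) and mitochondrial (5 of 11) enzymes. GAGGAAG, a motif of PU.1, an ETS factor of myeloid cells, went the other way, in 1 synthetase window (3.85%), 10 EIF windows (26.3%) and 20.8% of the others. The YY1 motif AAGATGGC was in 5 synthetase windows (19.2%), those of FARSA, KARS1, NARS1, SARS2 and WARS2, in 2 EIF windows (5.26%) and in 6.01% of the others. The E-box CACGTG was in 10 EIF windows (26.3%), in 3 synthetase windows (11.5%) and in 12.5% of the others. The EIF windows were those of EIF1B-AS1, EIF2B3, EIF3A, EIF4A3, EIF4B, EIF4E, EIF4EBP3, EIF4H, EIF5A2 and the wider EIF4G1 peak. EIF4A2, EIF4G2 and EIF4G3 were among the windows without it. MYC is among the factors known to bind the E-box, and no factor other than the antibody's target was measured here.

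For the remaining motifs, GGGCGG was in 84.2% of EIF, 88.5% of synthetase and 76.1% of other windows, and CCAAT in 44.7%, 57.7% and 44.1%. GCATGCGC (NRF1) was in 5.26%, 3.85% and 6.19%, TGTGGT (RUNX) in 13.2%, 15.4% and 15.4%, and TGANTCA (AP-1) in 5.26%, 0% and 7.45%. TATAAA was in 3 EIF windows (7.89%), in no synthetase window and in 5.43% of the others. The windows were alike in median base composition, with a median GC content of 64.2% in EIF, 63.5% in synthetase and 64.3% in other windows. The medians of CpG were 35, 33 and 33. Single windows varied, with 6 to 62 CpG in EIF, 15 to 48 in synthetase and 0 to 77 in other windows.

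**Figure D5:**
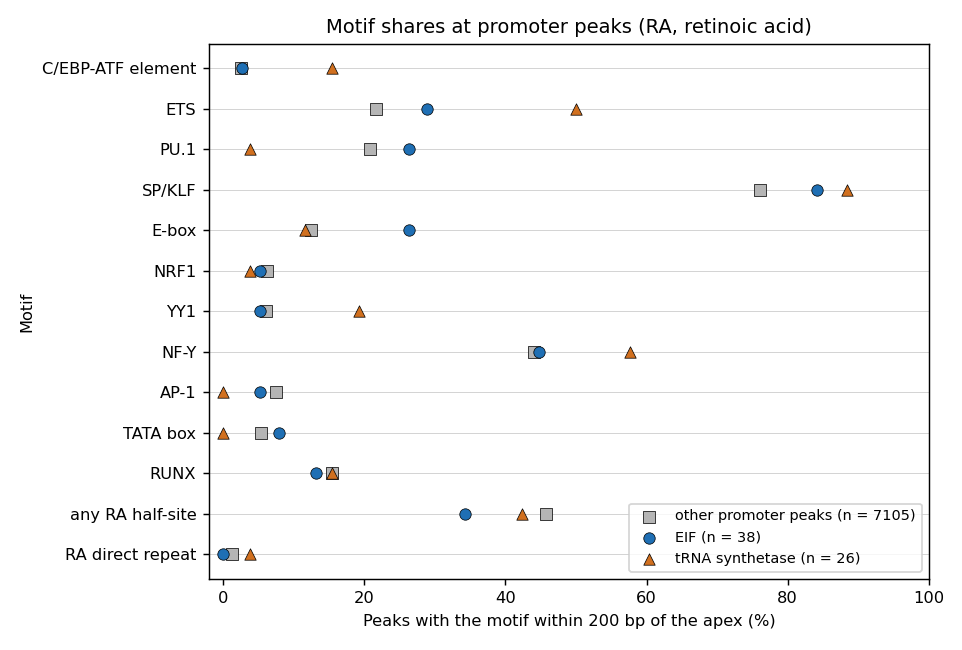
Percent of the 38 EIF, 26 tRNA synthetase and 7105 other promoter peaks with each motif on either strand within 200 bp of the apex. The synthetase points stand to the right of the others for the ETS motif (50%), the YY1 motif (19.2%) and the C/EBP-ATF element (15.4%), and the EIF points for the E-box (26.3%), while any retinoic acid (RA) half-site is least frequent in EIF windows (34.2%).

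The half-site of the retinoic acid receptor was searched in 4 forms. Any of them was in 13 EIF windows (34.2%), 11 synthetase windows (42.3%) and 45.7% of the other windows. The form AGGTCA was in 7.89% of EIF, 15.4% of synthetase and 16.6% of other windows, and the form GGGTCA in 15.8%, 11.5% and 20.3%. AGTTCA went another way in the synthetases, with 19.2% beside 7.89% in EIF and 10.3% in other windows, and GGTTCA was in 0% of synthetase, 7.89% of EIF and 11.1% of other windows. The shares for any form were higher 2 kb upstream, at 71.1%, 69.2% and 67.5%, where the median GC content was 44% to 46.4%. A direct repeat of half-sites with a spacer of up to 8 bp was in no EIF window, in 1 synthetase window and in 1.22% of the others. The 1 match, at VARS1, lay outside the called peak. Its 14 bases, spacer included, occur 3466 times on the 23 chromosomes searched. Repeats of the genome were not masked. A motif match is a description of the letters only, and motifs were searched at the apex of peaks of 1 antibody.

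Other genes of translation and of the response to eIF2 phosphorylation, a list of 32 outside the rule, were covered to a like extent. A peak of their own symbol was found for 18 (56.2%) and an apex within 1 kb for 24 (75%), beside the 30.0% and 39.3% of all protein-coding genes. Their 20 peaks had a median height of 22 and a range of 16 to 49. DDIT3, the stress transcription factor CHOP, was highest at 49, followed by EEF1G, a subunit of the elongation factor eEF1, at 45 and PAIP2, an inhibitor of the poly(A)-binding protein, at 43. PABPC1, the poly(A)-binding protein, had 3 peaks of up to 37. ATF4 had no peak of its own symbol and an apex 394 bp from a start site. Of the scaffold proteins of the multisynthetase complex, EEF1E1 had a height of 16, AIMP2 had an apex 12 bp from a start site without its own symbol, and AIMP1 had none nearby.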

How the data were processed

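The deposited list is that of U937-PR9 cells after 5 h in 100 μM ZnSO4 and the antibody against PML::RARA. Per the methods, the authors used Trimmomatic for trimming, Bowtie2 for alignment to hg19, Samtools to remove PCR duplicates and Bedtools to remove blacklisted reads. SEACR then called peaks, with the paired control as background and its norm union thresholds, and peaks that passed an IDR of 0.05 over 2 replicates were kept. For each peak the authors deposited a total signal and a score, both whole numbers, and the score is the largest signal, called height here. What each column holds was read from its values, since the total was below height times width in all 15412 peaks. Any normalization of the signal, and whether it comes from 1 replicate or from pooled reads, is not given in the sources used here. Peak widths, in bp, and gene symbols, given by the authors where the apex overlapped a promoter of the UCSC known genes, were used as deposited. Versions are not given there either. Depth is unknown.

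Distances, exons and introns were computed at the apex, the midpoint of the interval of largest signal, from GENCODE release 44 mapped to GRCh37. Both strands were searched for motifs within 200 bp of the apex and, for comparison, 2 kb upstream. Stretches printed come from the GRCh37 genome. Intervals of shares are Wilson 95% intervals, those of medians come from binomial order statistics, and both cover the counting of peaks only. With 1 value per peak and none per replicate, no test was run. Scripts were tested on simulated data with planted changes and motifs.

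The peaks, gene lists and motifs were chosen with earlier results of these data known. Named with values were, in each group, the 5 highest, 5 widest and 3 lowest peaks, genes with several peaks, all subunits of eIF2, eIF2B and eIF4F, the multisynthetase complex, and family genes covered under another symbol, apart from a few items of the rule that are not reported here. Further member peaks were named to give each role its values, and genes of the added list and of motif groups were named after their values were seen. The alternatives were merging of peaks under 1 kb apart, the highest peak of each gene, subunits and cytosolic enzymes alone, peaks at or above the median height, leaving out the widest 1%, the apex in place of the symbol, total signal, and classes of width or height. The software was Python 3.11.15, pandas 2.3.3, scipy 1.17.1, numpy 2.4.6, statsmodels 0.14.6 and matplotlib 3.10.9.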

Additional observations from a re-analysis of the deposited data

How the results depend on the processing

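Of 66 alternative values of 10 results, 52 stayed within the interval of the reported value and 14 did not. Taking peaks at or above the median height of the list alone, which removes low peaks by construction, gave median heights of 31.5 for EIF and 35 for the synthetases, a median width of 1396 bp for EIF, 60% of EIF peaks wider than the other promoter peaks, and peaks at 32.7% of EIF and 29.7% of synthetase genes beside 17.5% of all protein-coding genes. Total signal had medians of 9162 and 7946, which count among the 14 only because its scale differs from that of height. An apex within 1 kb of a start site covered 80% of EIF and 86.5% of synthetase genes, and within 3 kb 81.8% and 86.5%, beside 42.1% of all genes. An apex within 1 kb of the canonical start, an alternative chosen after seeing the data, covered 78.2% and 83.8%, beside 35.1%. Of the 34 shares of peaks higher or wider than the other promoter peaks, 32 were below 50%, the exceptions being the 60% above and 54.5% of synthetase peaks higher, both at or above the median height. The settings reuse largely the same peaks, so this count is no separate support. For height the other promoter peaks themselves had 48.6%, and 48.2% within classes of width, so shares near these values are no deficit. The form TGATGCAA was also chosen after seeing the data. No paired analysis was possible because replicates have no values of their own in the list, nor could a replicate be left out. The unknown depth limits all heights and widths.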

Other observations

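The list held 13 peaks without a gene symbol that overlapped 12 family genes, 9 in EIF and 4 in synthetase genes, and the apices of those at CARS2 and EIF3K lay outside the gene. The highest, 75, exceeded 99.9% of the other promoter peaks. It spanned 4497 bp of chromosome 13, from 111364386 to 111368882, and overlapped the 5′ edge of CARS2, whose annotation ends at 111365950. Its apex lay outside the gene, 9398 bp upstream of the canonical start, and it was higher than the CARS2 promoter peak at 47. EIF4E3, a cap-binding paralogue of EIF4E without a promoter peak, held one of height 42 in intron 1, from 71770925 to 71771632 on chromosome 3. EIF2AK1 held one of height 36 in intron 14 of the canonical transcript, with the apex 57 bp from another annotated start site of the gene. The peak with the EIF2AK1 symbol, at the canonical start, had 20. CARS1 held one of height 34 in intron 1, beside 21 at its promoter. The EIF5 and GARS1 peaks without a symbol, at heights of 40 and 16, had apices 118 and 27 bp from the canonical start sites. The lowest besides GARS1 were those of EIF3K at 16, EIF1 at 17 and EIF4EBP3 at 18.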
